A study of Mus musculus with 2 samples.

Results

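The 10 genes described here make, move or hold the mineral of bone: Alpl, Phospho1, Enpp1, Slc20a1, Slc20a2, Phex, Ibsp, Spp1, Bglap and Dmp1. They were chosen by symbol, and each symbol matched 1 feature, so that all 10 were found among the 28006 features of the deposited single-cell matrices. Single-cell transcriptomes were collected from femurs of 2 mice at postnatal day 28, with 1 library per mouse (Mouse #1 and Mouse #2). Both mice had the genotype Cxcl12(GFP/+); Cxcl12-iCreER; R26R(tdTomato/+) and had received tamoxifen at postnatal day 21. Here GFP replaces 1 copy of the chemokine gene Cxcl12, Cxcl12-iCreER is a bacterial artificial chromosome transgene coding for a tamoxifen-dependent recombinase, and tdTomato is a red reporter that recombination switches on. Cells were sorted for GFP, although a protocol field of the labels names tdTomato+ cells instead. The mice formed 1 group, so every comparison below is between classes of cells within these animals. All cells shared the inherited genotype, including the loss of 1 Cxcl12 copy, but recombination had switched tdTomato on in only some of them.

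Bone mineral grows where phosphate is released and pyrophosphate, which blocks crystal growth, is removed. Alkaline phosphatase (Alpl) splits pyrophosphate, PHOSPHO1 frees phosphate inside matrix vesicles, and ENPP1 makes pyrophosphate from nucleotides. The transporters encoded by Slc20a1 and Slc20a2 carry phosphate into cells, and PHEX is a membrane peptidase that takes part in phosphate balance and protects mineralization. Bone sialoprotein (Ibsp), osteopontin (Spp1) and dentin matrix protein (Dmp1) are acidic matrix proteins of a common family, and osteocalcin (Bglap) is the most abundant vitamin K-dependent protein of bone, made by mature osteoblasts.

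A barcode was taken as a cell if it held 1000 genes or more and no more than 15% of its UMIs were mitochondrial, where a UMI is the tag of 1 captured transcript. This gave 2750 cells of Mouse #1 and 4582 of Mouse #2, from libraries of 54940400 and 88790688 UMIs. Median depth per cell was 12966.5 and 12190 UMIs, and 7 cell barcodes occurred in both libraries. Clusters were named from marker lists that held none of the 10 genes, and none of the 10 genes entered the clustering. Reticular-like cells (1261 and 2466 cells), the adipocyte-related stroma of the marrow, carried 17412 and 15002 CPM of their 8 markers, against 5382 CPM or less in each other class described. Here CPM is the UMIs of a gene or list in each 1000000 UMIs of a class. Preosteoblast-like cells (423 and 802 cells) were named from 7 raised markers of 8 in each of their 2 clusters. Their sum of these markers, 11802 and 11978 CPM, was below that of periosteal-like cells (13678 and 12947 CPM) and of osteoblast-like cells (127815 and 123924 CPM, of which Col1a1 made up 126360 and 122762), so the sum does not set this class apart from them. Osteoblast-like cells (12 and 61 cells) were 1 cluster led by Col11a2 and Cgref1, with 5547 and 6390 CPM of the osteoblast markers against 749 CPM or less elsewhere. Periosteal-like cells (77 and 231 cells) were 1 cluster with 5 of 8 markers raised. Their marker sum was 1701 and 1391 CPM, of which Aspn made up 913 and 717. It was 329 CPM or less in each other class described. Thbs4 was at 0 in both mice, and Fmod stood at 19.7 and 10.2 CPM, against 18.4 and 83.5 CPM in osteoblast-like cells.

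Some features of these classes bear on the values below, and their part in the results was not tested. The median osteoblast-like cell held 42888 UMIs in Mouse #1 and 50483 in Mouse #2, compared to 15474 and 16174 in preosteoblast-like cells. Median Scrublet doublet scores were 0.0612 and 0.0610 in osteoblast-like cells and 0.0344 and 0.0404 in preosteoblast-like cells. Of the 6 chondrocyte markers, 4 and 3 were at 0 in osteoblast-like cells, while the cartilage collagen gene Col2a1 reached 521 and 1012 CPM. The 8 myeloid markers summed to 995.2 and 484 CPM in periosteal-like cells, against 214 to 236 CPM in reticular-like cells. Free RNA, read from barcodes of 1 to 100 UMIs, is the background that droplets add to every cell. Its CPM refers to the UMIs of those barcodes and not to the amount that a cell received. Hematopoietic cells (711 and 698 cells) served as the class that should hold little of these genes. The top 10 genes by fold of the reticular-like clusters held stress or immune genes, Ccl2 in cluster 0, Hspb1 and Hspa1b in cluster 1, Ifit1 in cluster 2 and Cxcl9 in cluster 15.

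Taken in the order reticular-like, preosteoblast-like and osteoblast-like, the 10 genes did not follow a single course. The order is a description, and rise, fall and step mean differences between classes. Whether cells pass from 1 class to another was not tested. Alpl, Slc20a2, Spp1, Bglap and Dmp1 rose in preosteoblast-like cells, Ibsp was already abundant in reticular-like cells, and Phex was lowest in preosteoblast-like cells among the classes of the skeletal lineage. In the osteoblast-like sums Bglap made up several percent of all UMIs, much of it from few cells, while Spp1 and Slc20a2 fell back. Against reticular-like cells, 5 of the 10 genes rose and 1 fell in preosteoblast-like cells (edgeR quasi-likelihood test on sums per mouse, Benjamini-Hochberg adjusted p under 0.05), with 23.7% of 12198 genes tested called, of which 12.2% were higher and 11.5% lower. The median log2 difference was 3.37 over the 10 genes and 0.03 over all genes. Against preosteoblast-like cells, 4 rose and 4 fell in osteoblast-like cells, where 34.3% of all genes were called, 16.2% higher and 18.2% lower. Among those that rose, Phospho1 passed the filter on low counts only through its osteoblast-like sums. Periosteal-like cells differed from reticular-like cells in 2 of the 10 genes, with 21.1% of all genes called (12.1% higher and 8.98% lower). With no filter on low counts, 4 of the 10 were called there, with 17.7% of genes called. From preosteoblast-like cells they differed in 6 of the 10 genes, 1 higher and 5 lower, with 20.7% of all genes called (12.1% higher and 8.63% lower). The same 2 mice stand behind all 4 comparisons, which share classes and are not independent of each other.

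**Figure D1:**
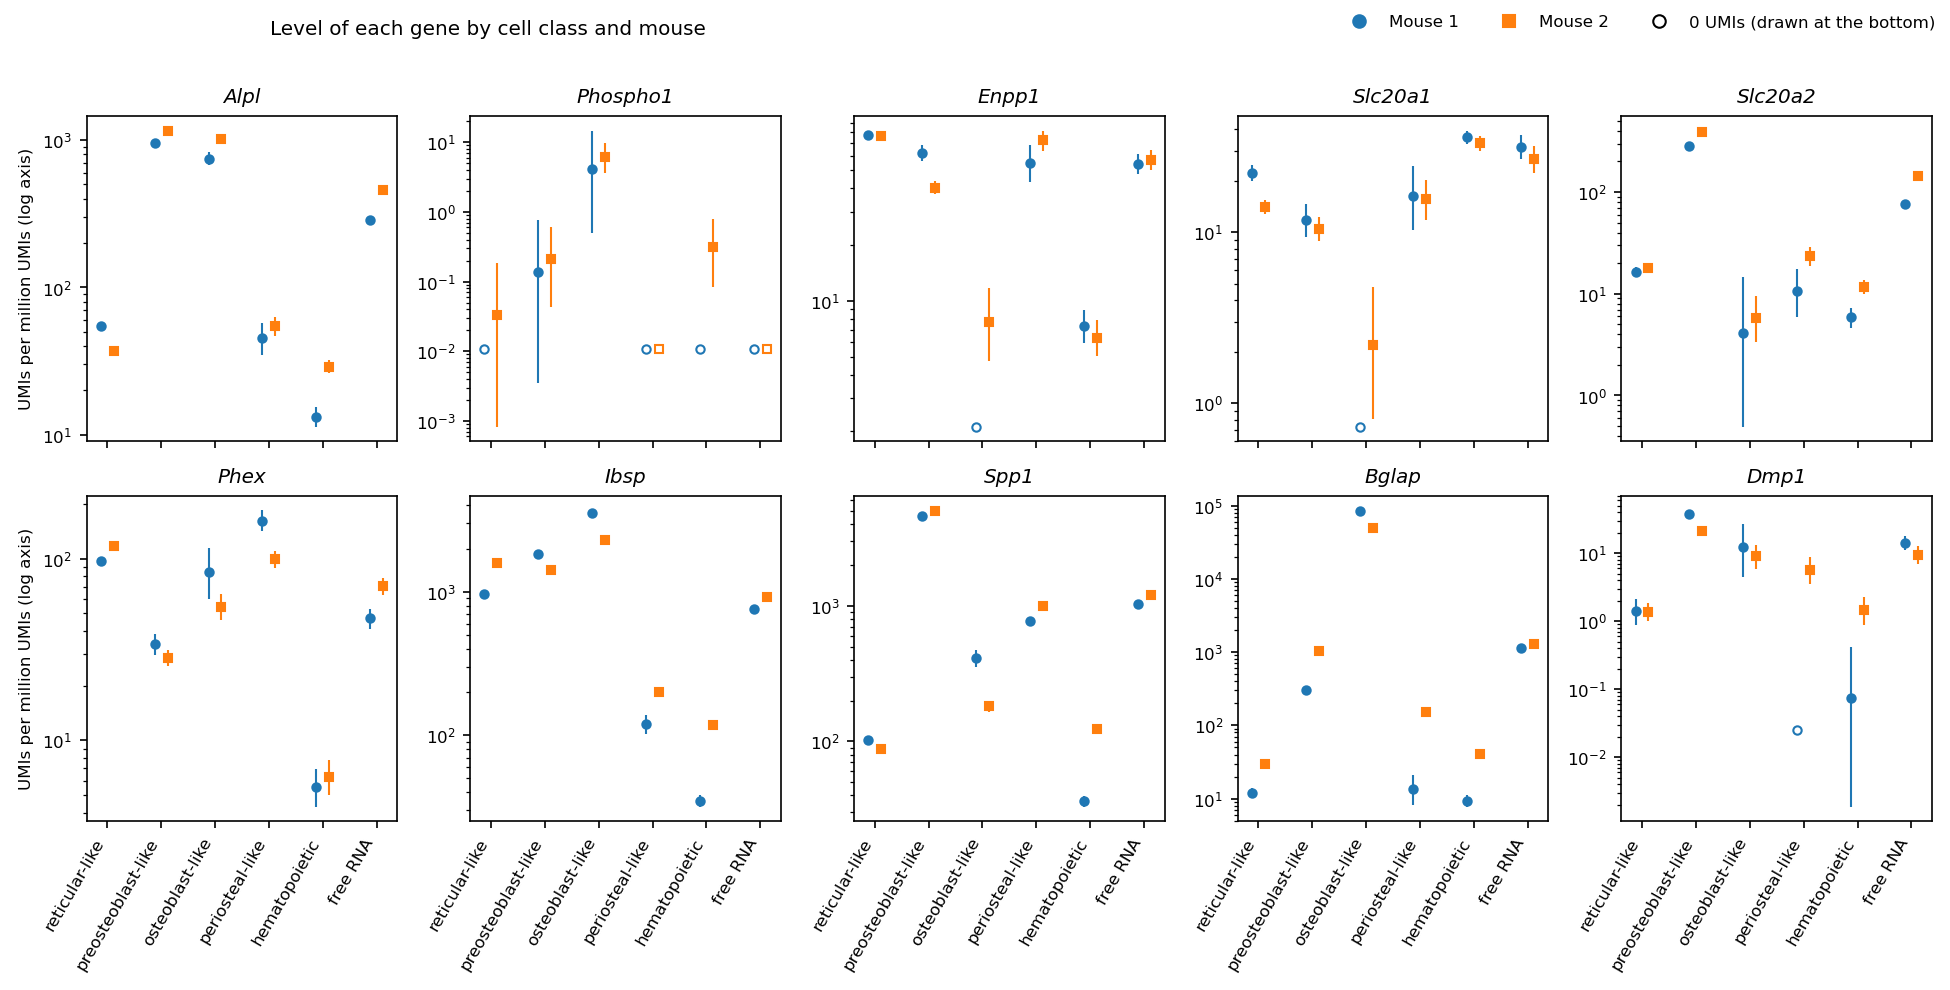
Level of each of the 10 genes in CPM of a class (log axis, scaled separately in each panel). Circles are Mouse #1, squares are Mouse #2, bars are exact Poisson 95% intervals, and open symbols at the bottom mark 0 UMIs. Spp1 peaks in preosteoblast-like cells at 4600.0 and 4997 CPM, and Bglap peaks in osteoblast-like cells at 84913 and 49951 CPM.

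**Figure D2:**
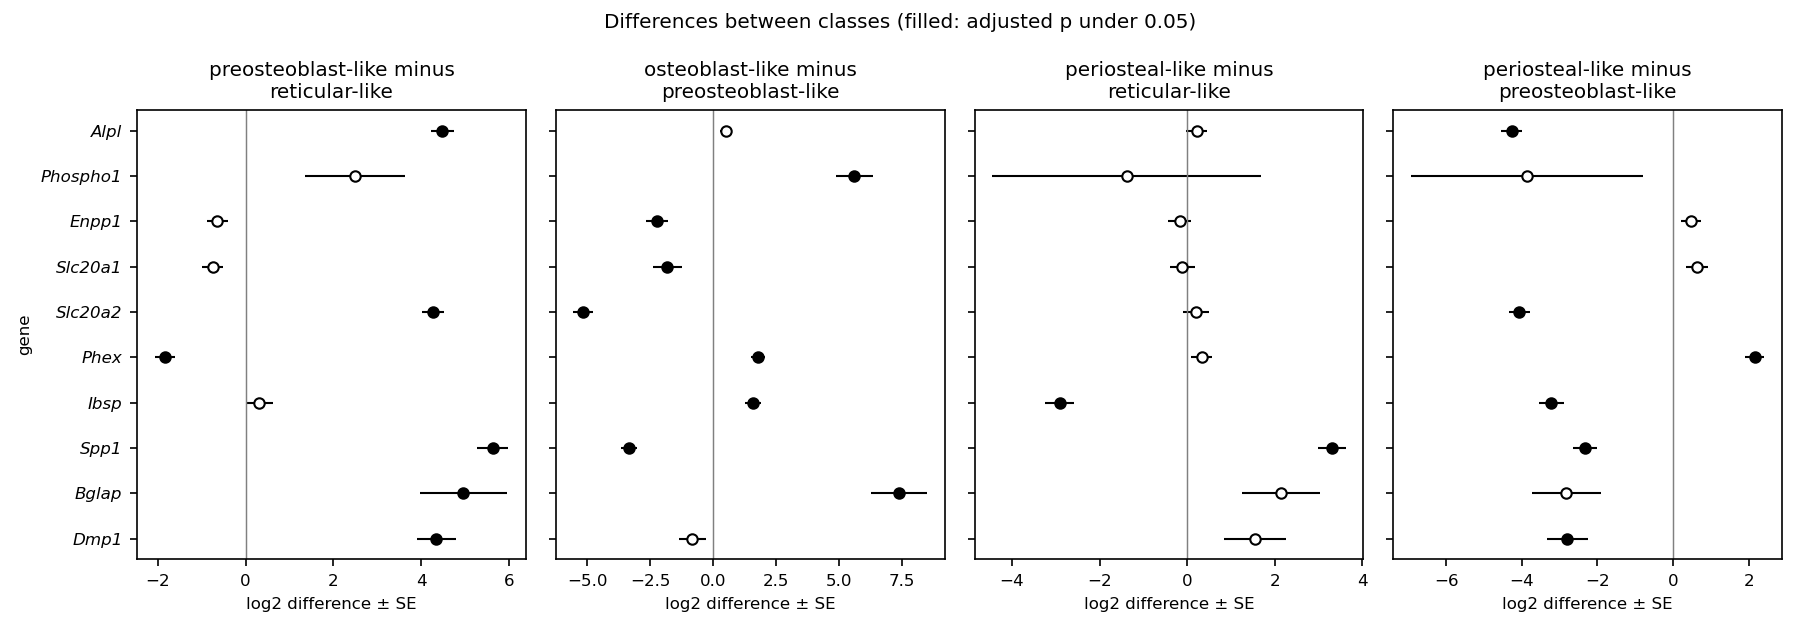
Fitted log2 difference between classes (x axis) for each gene (y axis), with its standard error from the edgeR fit. This error is not the spread between the 2 mice. Filled circles passed an adjusted p of 0.05. Slc20a2 lies at 4.26 in the first panel and at -5.17 in the second, while Ibsp lies near 0 in the first and near -3 in both panels of periosteal-like cells.

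Alpl (ENSMUSG00000028766, chr4:137741733-137796384, minus strand; all positions are GRCm38) separated the osteogenic classes from the others. It was measured at 54.3 and 37.2 CPM in reticular-like cells, 952 and 1145 CPM in preosteoblast-like cells, 748 and 1012 CPM in osteoblast-like cells, and 45.1 and 54.4 CPM in periosteal-like cells. Hematopoietic cells held 13.2 and 29.0 CPM, and free RNA 288 and 458 CPM. The reticular and periosteal values overlapped, as did those of preosteoblast-like and osteoblast-like cells, and no value of the first pair reached the second. The log2 difference of preosteoblast-like from reticular-like cells was 4.48 ± 0.26 (SE, n = 2 mice, edgeR adjusted p = 1.52e-05). Here and below, SE comes from the edgeR fit, with spread shared across the fitted sums and across genes. It does not measure how far the mice differ for a gene. From preosteoblast-like to osteoblast-like cells the difference was 0.50 ± 0.23 (edgeR adjusted p = 0.128), and it was -0.25 when library totals replaced the TMM scaling, so that its direction is not settled. Periosteal-like cells were below preosteoblast-like cells by a log2 difference of -4.27 ± 0.27 (edgeR adjusted p = 2.01e-05).

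Phospho1 (ENSMUSG00000050860, chr11:95824499-95832140, plus strand) was detected chiefly in osteoblast-like cells, at 2 and 17 UMIs. Preosteoblast-like cells held 1 and 3 UMIs over 423 and 802 cells, reticular-like cells 0 and 1, and periosteal-like cells 0 in both mice. Per UMI of the class, osteoblast-like cells exceeded preosteoblast-like cells by 29.4 times in Mouse #1 (exact 95% interval 1.53 to 1736, counting error only) and 29.8 times in Mouse #2 (8.62 to 159). The edgeR test called this rise (adjusted p = 0.000797), but the gene passed the filter on low counts only through its osteoblast-like sums. The call is therefore no independent support for the rise. At these counts no difference among the other classes was detectable. The annotated gene lies on the same strand as Zfp652 over 7642 bases and overlaps Abi3 on the other strand, so its UMIs are uncertain.

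Enpp1 (ENSMUSG00000037370, chr10:24637914-24712159, minus strand), the source of pyrophosphate, was lowest in osteoblast-like cells. It stood at 77.1 and 76.6 CPM in reticular-like cells, 62.0 and 40.4 CPM in preosteoblast-like cells, 0 and 7.66 CPM in osteoblast-like cells and 55.0 and 72.3 CPM in periosteal-like cells. Osteoblast-like cells were thus near the hematopoietic background of 7.29 and 6.36 CPM, and below free RNA at 54.2 and 56.8 CPM. The log2 difference from preosteoblast-like to osteoblast-like cells was -2.24 ± 0.44 (SE, n = 2 mice, edgeR adjusted p = 0.00465), and its size rests on the 21 UMIs of Mouse #2, as Mouse #1 had none. Between reticular-like and preosteoblast-like cells the difference was -0.64 ± 0.24 (edgeR adjusted p = 0.0858), which passed the threshold once mouse was a block of the model (edgeR adjusted p = 0.0436).

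The paired transporter genes took different courses. Slc20a2 (ENSMUSG00000037656, chr8:22476788-22569612, plus strand) was found at 16.4 and 17.8 CPM in reticular-like cells and at 282 and 393 CPM in preosteoblast-like cells. It was at 4.09 and 5.83 CPM in osteoblast-like cells, at 10.6 and 23.3 CPM in periosteal-like cells, at 5.88 and 11.6 CPM in hematopoietic cells and at 76.3 and 144 CPM in free RNA. High values were therefore limited to preosteoblast-like cells of both mice among the 4 classes. Its log2 difference was 4.26 ± 0.25 against reticular-like cells (SE, n = 2 mice, edgeR adjusted p = 1.52e-05), and -5.17 ± 0.38 from there to osteoblast-like cells (edgeR adjusted p = 2.54e-05). Under the looser limits of 500 genes and 20% mitochondrial UMIs the latter was -4.21. Periosteal-like cells lay below preosteoblast-like cells by a log2 difference of -4.06 ± 0.28 (edgeR adjusted p = 2.86e-05). The sense intronic transcript Gm17491 and, over 95 bases of the other strand, Smim19 overlap the gene.

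Slc20a1 (ENSMUSG00000027397, chr2:129198764-129211616, plus strand) was not highest in a skeletal class. Its levels were 22.3 and 14.2 CPM in reticular-like cells, 11.8 and 10.5 CPM in preosteoblast-like cells, 0 and 2.19 CPM in osteoblast-like cells and 16.2 and 15.7 CPM in periosteal-like cells. Endothelial cells held 102 and 113 CPM, hematopoietic cells 36.1 and 33.2 CPM, and free RNA 31.6 and 26.8 CPM, so every skeletal value was below theirs. Hematopoietic clusters ranged from 5.75 to 78.5 CPM in Mouse #1 and from 8.41 to 99.2 CPM in Mouse #2. They are therefore no plain background for this gene, and absence from skeletal cells is not read from these values. The fall from preosteoblast-like to osteoblast-like cells was called (log2 difference -1.83 ± 0.59, edgeR adjusted p = 0.0395), but on 6 UMIs in osteoblast-like cells, and leaving out any 1 of the 4 sums ended the call, at adjusted p of 0.0668 to 0.162. The difference of preosteoblast-like from reticular-like cells was -0.75 ± 0.24 (edgeR adjusted p = 0.0522, and 0.0226 with mouse as a block).

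Phex (ENSMUSG00000057457, chrX:157162075-157415312, minus strand), the gene mutated in X-linked hypophosphatemia, dipped in preosteoblast-like cells. It had 97 and 117 CPM in reticular-like cells, 33.8 and 28.4 CPM in preosteoblast-like cells, 83.8 and 54.3 CPM in osteoblast-like cells and 162 and 99.1 CPM in periosteal-like cells. Hematopoietic cells held 5.51 and 6.28 CPM, and free RNA 46.8 and 70.3 CPM. The preosteoblast-like values of both mice lay under all values of the other 3 classes, and the reticular and periosteal values overlapped. The log2 difference of preosteoblast-like from reticular-like cells was -1.83 ± 0.24 (SE, n = 2 mice, edgeR adjusted p = 0.000752). Osteoblast-like and periosteal-like cells were above preosteoblast-like cells by 1.78 ± 0.28 (edgeR adjusted p = 0.00137) and 2.16 ± 0.25 (edgeR adjusted p = 0.000436) on the log2 scale.

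Ibsp (ENSMUSG00000029306, chr5:104299171-104311469, plus strand) did not separate reticular-like from preosteoblast-like cells. Bone sialoprotein binds the mineral and is used as an osteoblast marker. It was measured at 969.7 and 1578 CPM in reticular-like cells, 1849 and 1417 CPM in preosteoblast-like cells, 3523 and 2310.0 CPM in osteoblast-like cells and 119 and 201 CPM in periosteal-like cells. The mice disagreed on the order of reticular-like and preosteoblast-like cells (log2 difference 0.31 ± 0.30, edgeR adjusted p = 0.51). Hematopoietic cells held 35.0 and 118 CPM and free RNA 756 and 916 CPM, so that reticular-like cells were above both in each mouse. Osteoblast-like cells exceeded preosteoblast-like cells (log2 difference 1.57 ± 0.31, SE, n = 2 mice, edgeR adjusted p = 0.00475). Periosteal-like cells were below reticular-like cells by a log2 difference of -2.91 ± 0.33 (edgeR adjusted p = 0.000391) and below preosteoblast-like cells by -3.22 ± 0.34 (edgeR adjusted p = 0.00025).

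Spp1 (ENSMUSG00000029304, chr5:104435118-104441050, plus strand), whose product osteopontin slows crystal growth and tethers cells to mineral, followed another order. It stood at 101 and 87.8 CPM in reticular-like cells, 4600.0 and 4997 CPM in preosteoblast-like cells, 411 and 181 CPM in osteoblast-like cells and 772 and 989.8 CPM in periosteal-like cells. All 4 classes were separate in both mice, and reticular-like cells lay within the hematopoietic range of 36.2 to 123 CPM. Free RNA held 1021 and 1189 CPM. The log2 difference of preosteoblast-like from reticular-like cells was 5.62 ± 0.36 (SE, n = 2 mice, edgeR adjusted p = 2.19e-05), and the one of osteoblast-like from preosteoblast-like cells was -3.34 ± 0.33 (edgeR adjusted p = 9.79e-05). Periosteal-like cells lay above reticular-like cells by 3.29 ± 0.32 (edgeR adjusted p = 0.000158) and under preosteoblast-like cells (-2.33 ± 0.31, edgeR adjusted p = 0.000879). Spp1 was the 1 gene of the 10 called higher in periosteal-like than in reticular-like cells.

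Dmp1 (ENSMUSG00000029307, chr5:104202613-104214102, plus strand), a marker of osteocytes, was rare. It stood at 1.4 and 1.38 CPM in reticular-like cells, 37.9 and 21.6 CPM in preosteoblast-like cells, 12.3 and 9.11 CPM in osteoblast-like cells and 0 and 5.69 CPM in periosteal-like cells, against 14.2 and 9.51 CPM in free RNA. Hematopoietic cells had 0.0744 and 1.47 CPM. In CPM, preosteoblast-like cells of both mice were above every other class, by a log2 difference of 4.34 ± 0.44 from reticular-like cells (SE, n = 2 mice, edgeR adjusted p = 0.000206). The difference from preosteoblast-like to osteoblast-like cells was -0.83 ± 0.53 (edgeR adjusted p = 0.264) and was called, at -1.59, with library totals (adjusted p = 0.0289). Periosteal-like cells were lower than preosteoblast-like cells by a log2 difference of -2.80 ± 0.54 (edgeR adjusted p = 0.00698), with the 20 UMIs all from Mouse #2. Dmp1, Ibsp, Mepe and Spp1 lie in this order within 238438 bases of chromosome 5. The osteocyte genes Mepe and Sost, neither of which passed the filter on low counts, were at 0 UMIs in osteoblast-like cells of both mice.

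Bglap (ENSMUSG00000074483, chr3:88383501-88384464, minus strand) defined the far end of the range. It was at 12 and 29.3 CPM in reticular-like cells and 13.4 and 154 CPM in periosteal-like cells, at 299.7 and 1025 CPM in preosteoblast-like cells and at 84913 and 49951 CPM in osteoblast-like cells, where it made up 8.49% and 5.0% of all UMIs. Of the Bglap UMIs of osteoblast-like cells, 2 of 12 cells held 68.1% in Mouse #1 and 7 of 61 cells held 49.98% in Mouse #2. Single cells held up to 18589 of 41548 and 12415 of 137007 UMIs. The median osteoblast-like cell held 562.5 and 977 Bglap UMIs, so the CPM describe the class sums and not a typical cell. Hematopoietic cells held 9.38 and 40.9 CPM and free RNA 1153 and 1279 CPM. Reticular-like cells were thus inside the hematopoietic range. In CPM of the sums, Mouse #2 was higher than Mouse #1 in every class except osteoblast-like cells. The log2 difference of preosteoblast-like from reticular-like cells was 4.96 ± 0.99 (SE, n = 2 mice, edgeR adjusted p = 0.00693), and without the reticular-like sum of Mouse #1 it was 4.46 (edgeR adjusted p = 0.053), which ended the call. Without the preosteoblast-like sum of Mouse #2 it was 3.79. Osteoblast-like cells exceeded preosteoblast-like cells (log2 difference 7.39 ± 1.10, edgeR adjusted p = 0.000978). Periosteal-like cells differed from preosteoblast-like cells by -2.82 ± 0.91 (edgeR adjusted p = 0.0578, and 0.00981 with mouse as a block).

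Osteocalcin is coded by a cluster of similar genes, so the Bglap values are uncertain in how they divide among them. Bglap, Bglap2 and Bglap3 span 15849 bases, and 55.0% of the 50-base windows at the transcript ends of Bglap also occur in Bglap2 and 21.3% in Bglap3. UMIs that fit several copies may have been dropped or assigned to 1 of them. Bglap2 stood at 17039 and 10747 CPM in osteoblast-like cells and 82.7 and 290.5 CPM in preosteoblast-like cells, and it rose between these classes (log2 difference 6.93 ± 0.87, edgeR adjusted p = 0.00038). Bglap3 rose as well, from 0.278 and 1.53 CPM to 51.1 and 66.0 CPM (6.56 ± 0.53, edgeR adjusted p = 3.48e-05). It passed the filter on low counts only through its osteoblast-like sums, so this call is no independent support.

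Calls between osteoblast-like and preosteoblast-like cells depended on the scaling, and the cause was not tested. TMM factors were 0.718 and 0.684 for osteoblast-like sums and 1.07 to 1.18 for the other sums. The median log2 difference of all genes between osteoblast-like and preosteoblast-like cells was -0.17 with TMM and -0.93 with library totals. Of the genes called, 47.1% were higher with TMM and 10.4% with library totals, which called 62.5% of all genes. Of the 10 genes, Phospho1, Phex, Ibsp and Bglap were called higher while Enpp1, Slc20a1, Slc20a2 and Spp1 were called lower under both scalings.

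The promoters of the genes are shown where they hold the core motif of RUNX factors, ACCACA, on either strand, since RUNX2 is the factor that starts osteoblast differentiation. RefSeq promoter records (GRCm38.p6, 250 bases before to 50 after a start site) matched 9 of the 10 genes, all but Slc20a2, with 13 start sites. The motif was present in 5 of these promoters, and in 16.8% of 32851 mouse promoters of this length. Spp1, Bglap and Dmp1, which rose in preosteoblast-like cells, and Enpp1 and Slc20a1, which were not called there, each had 1 promoter with 1 match. Neither promoter of Alpl, which rose, nor that of Phex, which fell, held it, and those of Phospho1 and Ibsp did not either. The matches began at -144 (Enpp1), -77 (Slc20a1), -128 (Spp1), -132 (Bglap) and -164 (Dmp1) from the start site. A match describes these letters and not a bound site. The promoters read 5′ to 3′ in the direction of the gene, with the motif or its complement in capitals:
Enpp1 (chr10:24712110-24712409, minus strand): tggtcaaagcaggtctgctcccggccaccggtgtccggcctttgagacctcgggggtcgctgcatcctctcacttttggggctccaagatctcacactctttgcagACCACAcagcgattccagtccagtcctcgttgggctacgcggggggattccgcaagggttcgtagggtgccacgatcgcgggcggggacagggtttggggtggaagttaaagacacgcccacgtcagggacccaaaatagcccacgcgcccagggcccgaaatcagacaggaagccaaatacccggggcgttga
Slc20a1 (chr2:129198523-129198822, plus strand): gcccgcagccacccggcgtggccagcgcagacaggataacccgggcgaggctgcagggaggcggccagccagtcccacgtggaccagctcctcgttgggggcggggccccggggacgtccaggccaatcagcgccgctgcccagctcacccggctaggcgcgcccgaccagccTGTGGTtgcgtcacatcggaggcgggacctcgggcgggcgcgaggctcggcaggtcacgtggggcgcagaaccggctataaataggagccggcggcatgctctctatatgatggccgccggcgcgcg
Spp1 (chr5:104434861-104435160, plus strand): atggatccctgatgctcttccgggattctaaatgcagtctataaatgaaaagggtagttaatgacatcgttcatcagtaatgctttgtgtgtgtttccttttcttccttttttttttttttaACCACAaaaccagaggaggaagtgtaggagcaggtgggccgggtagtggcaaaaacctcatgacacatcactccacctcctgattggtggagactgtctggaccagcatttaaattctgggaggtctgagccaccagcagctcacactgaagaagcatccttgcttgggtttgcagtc
Bglap (chr3:88384417-88384716, minus strand): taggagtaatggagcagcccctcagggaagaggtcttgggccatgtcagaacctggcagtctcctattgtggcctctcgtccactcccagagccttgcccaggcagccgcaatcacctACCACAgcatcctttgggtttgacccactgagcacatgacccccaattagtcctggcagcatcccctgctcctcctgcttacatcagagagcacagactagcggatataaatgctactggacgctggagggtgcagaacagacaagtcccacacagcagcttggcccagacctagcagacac
Dmp1 (chr5:104202367-104202666, plus strand): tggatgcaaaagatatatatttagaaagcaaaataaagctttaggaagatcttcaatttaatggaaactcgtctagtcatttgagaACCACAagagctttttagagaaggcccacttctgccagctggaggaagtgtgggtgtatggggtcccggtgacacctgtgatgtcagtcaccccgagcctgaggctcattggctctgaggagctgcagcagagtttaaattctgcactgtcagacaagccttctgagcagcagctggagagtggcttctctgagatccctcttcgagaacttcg

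The share of cells with a UMI was counted after each cell was thinned to 2000 UMIs, a depth that 6 and 21 cells of the 2 mice did not reach. Alpl was found in 74.9% and 79.0% of preosteoblast-like cells, against 10.4% and 7.09% of reticular-like and 1.55% and 5.60% of hematopoietic cells. Ibsp was found in 49.4% and 65.1% of reticular-like cells, 60.8% and 54.3% of preosteoblast-like cells and 3.66% and 9.63% of hematopoietic cells, so the broad presence in reticular-like cells was above background. Slc20a2 was present in 39.5% and 50.2% of preosteoblast-like cells, and in 0.845% and 2.16% of hematopoietic cells. Before thinning, the median reticular-like cell held 12340 and 11518 UMIs and the median hematopoietic cell 12923 and 10649 UMIs. Spp1 and Bglap in reticular-like cells, at 8.28% and 9.94% and at 3.11% and 6.27%, were below the hematopoietic shares in Mouse #2 (12.2% and 8.05%) and above them in Mouse #1 (5.21% and 1.69%), so no expression is read from them. Without thinning, Alpl was found in 95.7% and 97.1% of preosteoblast-like cells and in 33.4% and 23.8% of reticular-like cells. Osteoblast-like cells with a Bglap UMI were 91.7% and 91.8%, and none of the 10 genes was found in all of them at this depth.

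**Figure D3:**
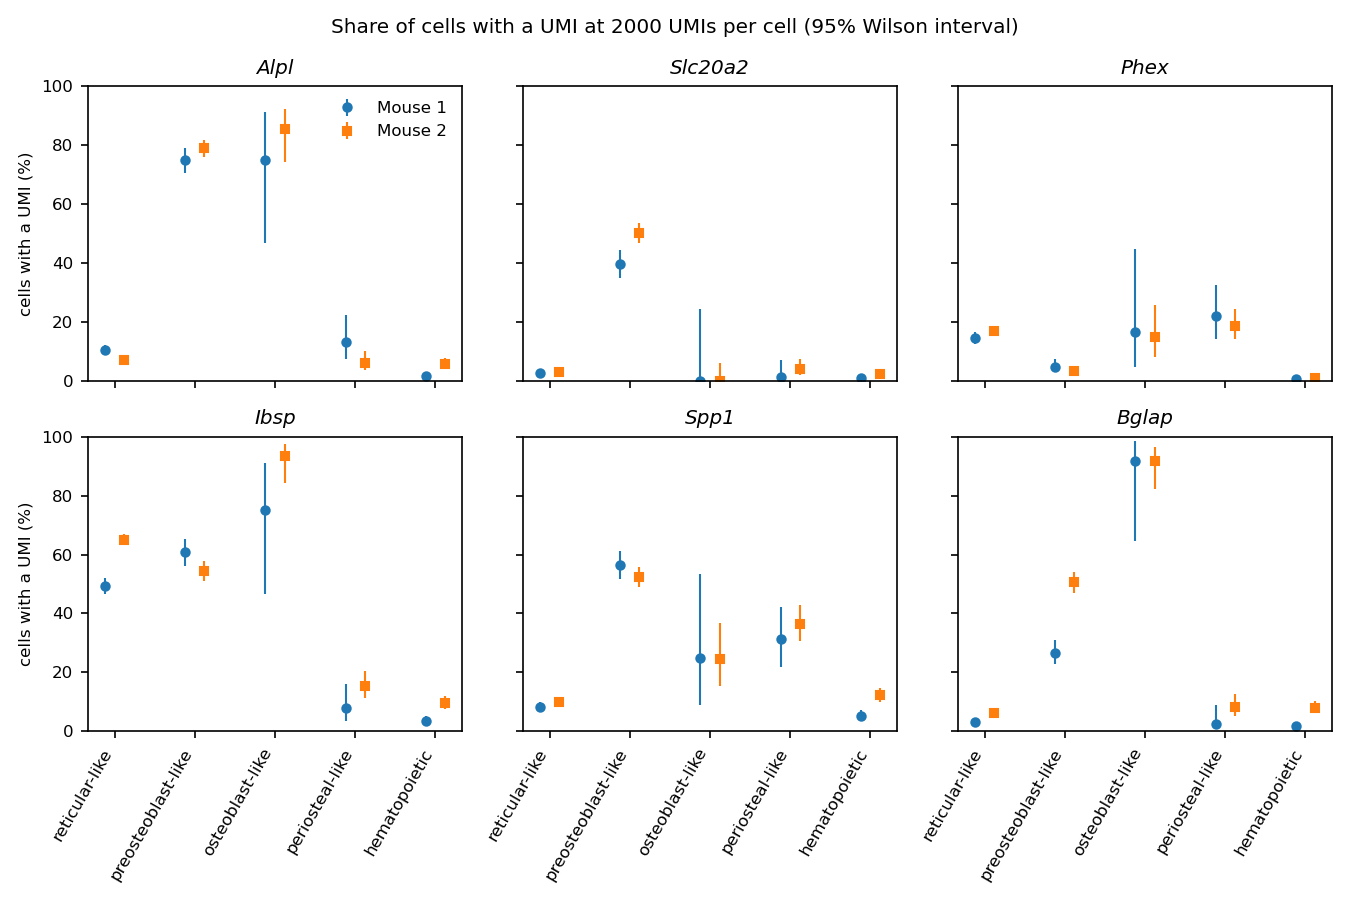
Percent of cells with at least 1 UMI of a gene (y axis) by class (x axis), after thinning every cell to 2000 UMIs. Circles are Mouse #1, squares are Mouse #2, and bars are Wilson 95% intervals, which cover counting error only. Ibsp is seen in 49.4% and 65.1% of reticular-like cells, while Slc20a2 is common in preosteoblast-like cells alone among the classes drawn.

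Cells of a class did not share these transcripts evenly. Without thinning, 35 of 423 and 33 of 802 preosteoblast-like cells held a Dmp1 UMI, with up to 50 and 92 UMIs in a single cell. These were 8.27% and 4.11%, against 16.7% and 14.8% of the deeper osteoblast-like cells. After thinning the shares were 4.26% and 1.25% against 0% and 1.64%. Spp1 was concentrated in the same class, with 78.4% and 86.9% of its UMIs in the top 10%, a median of 7 and 6 UMIs per cell and a highest cell of 2507 and 9546 UMIs. Alpl, in contrast, was spread over the class, with 31.9% and 27.0% in the top 10% and a median of 13 and 17 UMIs. Ibsp was more evenly spread in reticular-like cells (47.3% and 40.0% in the top 10%) than in preosteoblast-like cells (60.4% and 64.4%). Thinned cells carried a median of 3 of the 10 genes in preosteoblast-like cells and 1 in reticular-like cells of both mice, and at least 3 genes were found in 57.9% and 67.8% of preosteoblast-like but in 5.18% and 8.19% of reticular-like cells.

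The preosteoblast-like class was made of clusters 3 and 4, which differed in some of the 10 genes although none of the 10 had entered the clustering. No test was made between clusters. Cluster 3 (204 and 530 cells), led by Npy, Wif1 and Mmp13, held 5597 and 5820 CPM of Spp1 against 3042 and 1844 CPM in cluster 4 (219 and 272 cells), led by Kcnk2 and Limch1. Dmp1 was at 57.2 and 26.7 CPM in cluster 3 and 7.83 and 2.01 CPM in cluster 4. Bglap was likewise higher in cluster 3, at 365 and 1185 CPM against 197 and 412 CPM, and so was Ibsp, at 2158 and 1531 CPM against 1366 and 981 CPM. Slc20a2 ran the other way, with 205 and 349 CPM in cluster 3 and 401 and 559 CPM in cluster 4, and Alpl differed little, at 856 and 1139 CPM against 1104 and 1167 CPM. The median cell of cluster 3 had 1.60 times the UMIs of its library's median and that of cluster 4 had 0.862 times. In an unnamed cycling cluster led by Acta2 (66 and 84 cells), Spp1 was at 5917 and 2475 CPM, Alpl at 656 and 899.5 CPM and Slc20a2 at 142 and 248 CPM. Alpl and Slc20a2 were there below both preosteoblast-like clusters of the same mouse. The 4 reticular-like clusters ranged from 816 to 1097 CPM of Ibsp in Mouse #1 and from 1180.2 to 1771 CPM in Mouse #2, so Ibsp was not confined to 1 of them.

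**Figure D4:**
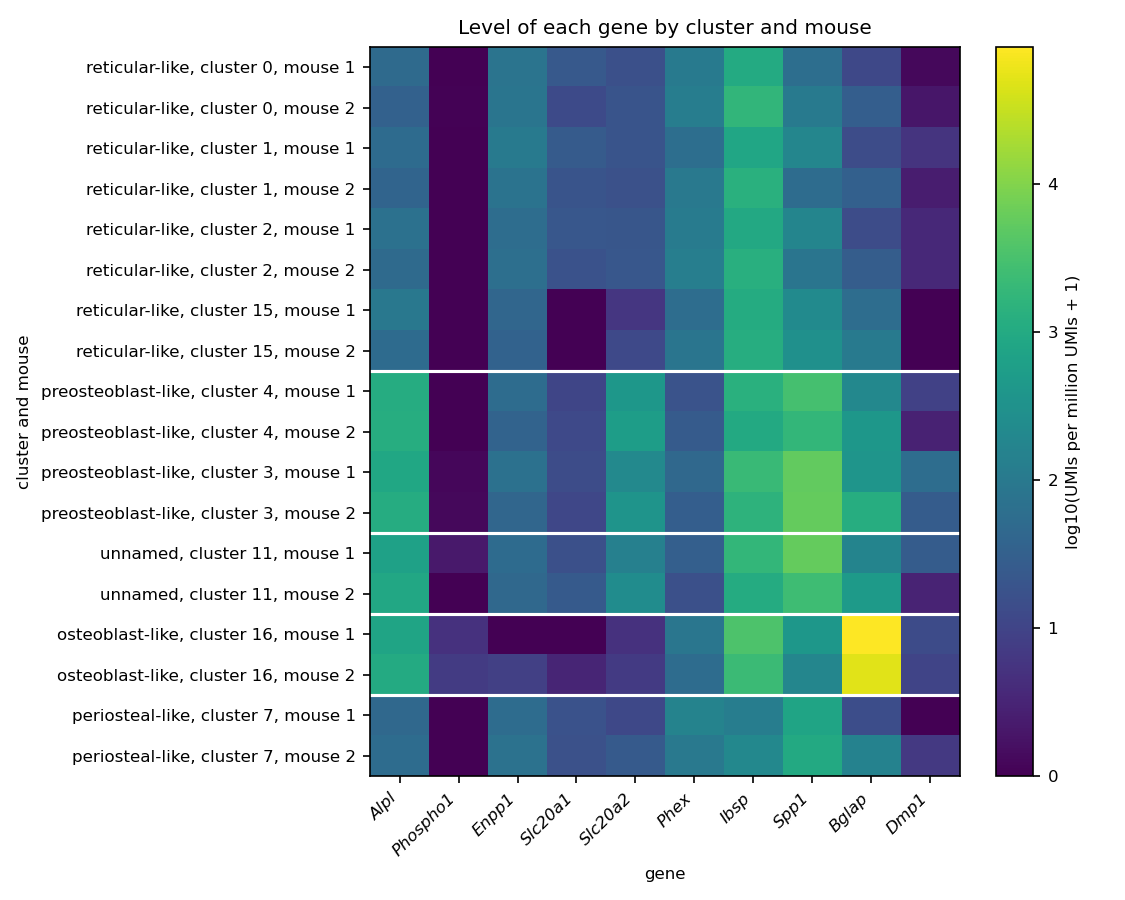
Level of each gene (columns) in each cluster and mouse (rows), as log10 of CPM plus 1, for the 4 classes and the unnamed cycling cluster. White lines separate classes. Dmp1, Bglap and Spp1 are higher in preosteoblast-like cluster 3 than in cluster 4 in both mice, and Slc20a2 is lower.

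The reporter marks cells in which Cxcl12-iCreER had acted, and tdTomato+ reticular-like cells (504 and 982) were compared with tdTomato- ones (757 and 1484) for the 10 genes. A cell counted as positive when its tdTomato exceeded that of 99% of the blood cells of the same mouse, which was 7.73 and 14.6 UMIs per 10000. None of the 9 genes tested was called, nor was any of 12206 genes (0% called by edgeR; 488 had an unadjusted p under 0.05). DESeq2 called 11 genes (0.0901%), Spp1 among them, and edgeR with no filter called 86 (0.471%), with Spp1 and Slc20a2 among them. Spp1 was at 36.2 and 57.4 CPM in tdTomato+ and 146 and 108 CPM in tdTomato- cells, lower in both mice (log2 difference -1.39 ± 0.24, SE, n = 2 mice, edgeR adjusted p = 0.89). Reticular-like cells as a whole lay within the hematopoietic range for Spp1, and few of them carried most of it. The top 10% held 86.9% and 72.1% of its UMIs, and single cells held 234 of 1668 and 485 of 2674. The part of such cells in the difference was not tested. Slc20a2 was at 11.1 and 14.1 CPM against 19.9 and 20.2 CPM (-0.62 ± 0.14, edgeR adjusted p = 0.965). Ibsp was at 1149 and 1779 CPM against 847 and 1443 CPM (0.38 ± 0.30, edgeR adjusted p = 0.965). Cells of both kinds came from the same animals, and with mouse as a block edgeR called 438 genes (3.59%), among them 5 of the 9: Spp1, Slc20a2 and Alpl lower and Ibsp and Phex higher in tdTomato+ cells, at adjusted p of 1.05e-06 for Spp1 and 1.27e-05 for Ibsp. Preosteoblast markers summed to 2522 and 2641 CPM in tdTomato+ cells and 2930 and 3308 CPM in tdTomato- cells, and erythroid markers to 361 and 308 against 1529 and 3109 CPM. Their part in the differences was not tested.

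**Figure D5:**
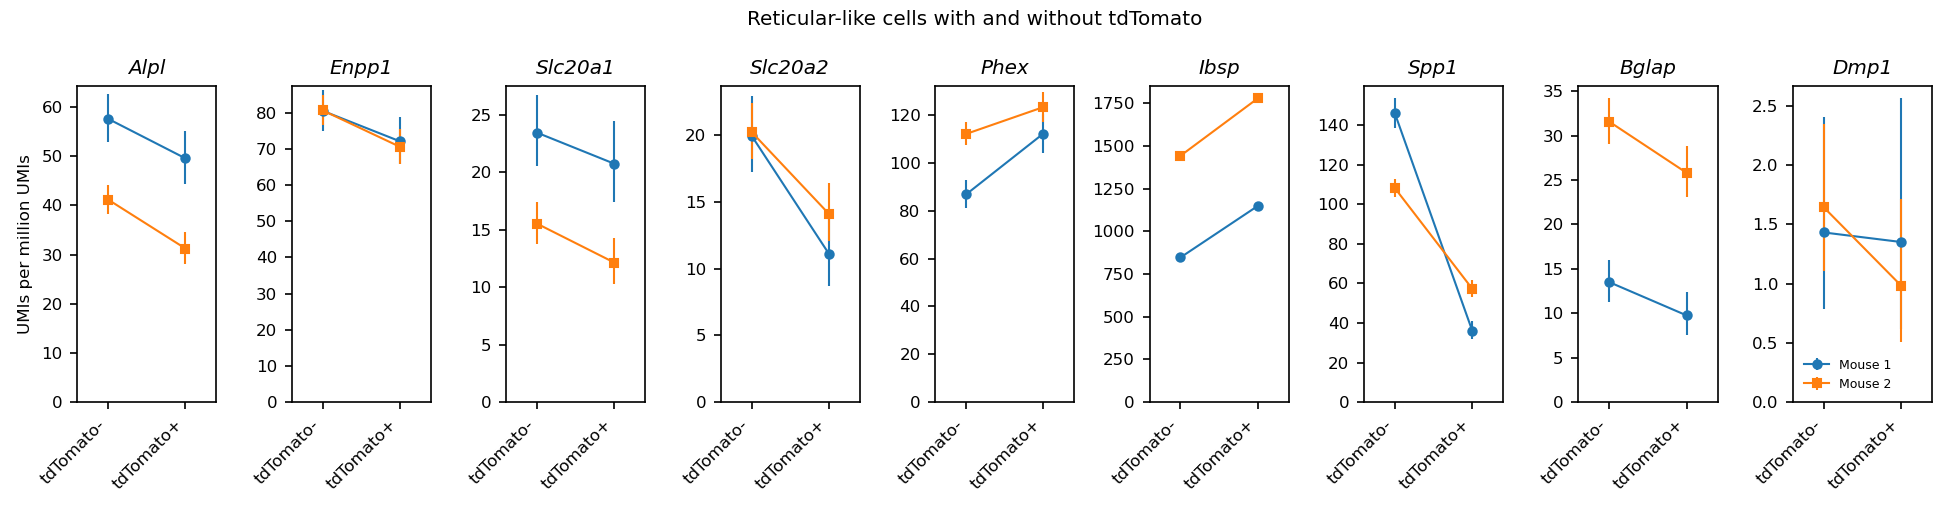
Level of 9 genes in CPM in tdTomato- and tdTomato+ reticular-like cells, joined within each mouse, with exact Poisson 95% intervals and axes from 0. Spp1 is lower in tdTomato+ cells of both mice, at 36.2 and 57.4 CPM, and Ibsp is higher. Most Spp1 UMIs of reticular-like cells came from few cells.

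Other genes of mineralization were taken from a list of 20, of which 17 passed the filter on low counts. Of these, 10 rose and 0 fell from reticular-like to preosteoblast-like cells, and 11 rose and 1 fell from there to osteoblast-like cells. Among those that rose in osteoblast-like cells, Slc13a5 and Bglap3 passed the filter only through the osteoblast-like sums. The shares of all genes called were 12.2% higher and 11.5% lower at the first step and 16.2% higher and 18.2% lower at the second. With library totals in place of TMM the second count was 9 higher and 4 lower, while the first was still 10 and 0. At the second step Xpr1 and Bmp1 lost their calls, and Ank, Fam20c and Vdr were called lower beside Mgp. Of all 12198 genes, library totals called 1727 higher and 1299 lower at the first step. At the second they called 796 higher and 6823 lower, so lower calls were common there among all genes. The median log2 differences of the 17 with TMM were 1.60 and 1.81. Among genes of phosphate and citrate handling, Smpd3, a sphingomyelinase needed for mineralization, was at 1.70 and 4.01 CPM in reticular-like, 50.2 and 50.5 CPM in preosteoblast-like and 873 and 1023 CPM in osteoblast-like cells, rising at both steps (log2 differences 4.02 ± 0.37 and 4.98 ± 0.36, edgeR adjusted p = 0.000124 and 2.32e-05). The citrate transporter gene Slc13a5 was at 1.81 and 1.66 CPM in preosteoblast-like and 249 and 402 CPM in osteoblast-like cells (8.35 ± 0.46, edgeR adjusted p = 8.31e-06). Ank, which passes pyrophosphate or its precursors out of the cell, was higher in preosteoblast-like (32.4 and 44.0 CPM) than in reticular-like cells (13.9 and 16.1 CPM) by 1.31 ± 0.19 (edgeR adjusted p = 0.00125).

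Among enzymes and proteins of the matrix, Fam20c, the kinase of acidic matrix proteins, rose with the preosteoblast-like class, from 3.65 and 2.92 CPM to 25.1 and 15.7 CPM (2.58 ± 0.26, edgeR adjusted p = 0.000219). Vkorc1, which recycles the vitamin K needed to carboxylate osteocalcin, rose in osteoblast-like cells from 98.8 and 105 CPM to 585 and 522 CPM (3.17 ± 0.17, edgeR adjusted p = 7.94e-06), and its partner Ggcx from 20.7 and 22.3 CPM to 47.0 and 44.1 CPM (1.81 ± 0.15, edgeR adjusted p = 4.44e-05). The bone-restricted membrane protein gene Ifitm5 went from 8.06 and 9.22 CPM to 726 and 875 CPM (7.27 ± 0.37, edgeR adjusted p = 7.31e-06). These 3 genes were above every preosteoblast-like value in both mice. The collagen-binding matrix protein gene Sparc went from 3229.6 and 4085 CPM to 40223 and 40649 CPM (4.2 ± 0.20, edgeR adjusted p = 7.31e-06), and Galnt3, which glycosylates the phosphate hormone FGF23, from 1.95 and 1.94 CPM to 24.5 and 34.3 CPM (4.74 ± 0.41, edgeR adjusted p = 9.29e-05). Omd, a proteoglycan of bone, differed at the earlier step, with 169.6 and 732 CPM in preosteoblast-like against 21.4 and 21.9 CPM in reticular-like cells (log2 difference 4.35 ± 0.60, edgeR adjusted p = 0.00106). Mgp, an inhibitor of calcification, was with TMM the 1 gene of the list called lower in osteoblast-like cells, from 71.7 and 76.4 CPM to 0 and 2.55 CPM (-4.36 ± 0.57, edgeR adjusted p = 0.000483), and it reached 7653 and 5526 CPM in periosteal-like cells. Across the list, 7 genes rose and 0 fell in periosteal-like against reticular-like cells, where 12.1% of all genes were called higher and 8.98% lower, and 4 rose and 7 fell against preosteoblast-like cells, where these shares were 12.1% and 8.63%. Fgf23, Mepe and Sost did not pass the filter. Smpd3 and Vkorc1 overlap other annotated genes on their own strand (Gm26786 and Gm21974), so their UMIs are uncertain.

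Over 16 sums of cluster and mouse, the genes among 8257 candidates whose log2(CPM + 1) ran most like each of the 10 were named as a description. The sums share libraries, depth and clusters. Alpl was followed most closely by Pth1r (Pearson r = 0.975), the receptor of parathyroid hormone and itself a preosteoblast marker used for naming, and Slc20a2 by Nav2 (0.972) and Col12a1 (0.963). Bglap ran with Snd1 (0.962) and Insc (0.958), Phospho1 with Entpd3 (0.991), and Spp1 with Clec11a (0.896). Phospho1 held 2 and 17 UMIs in the osteoblast-like sums and at most 3 in any other sum. Its r values therefore mainly set that cluster apart from the rest. Nav2, Entpd3 and Clec11a were among the clustering genes, so they helped to form the clusters over which r was taken. Enpp1 was nearest to Fhl2 (0.981), Slc20a1 to Ncoa1 (0.981), Ibsp to Sdk2 (0.873), Dmp1 to Dapk2 (0.845) and Phex to Loxl2 (0.841). Among the 10 genes themselves, Bglap and Phospho1 ran together (0.885) and opposite to Enpp1 (-0.861 and -0.857), and Alpl ran opposite to Phex (-0.811).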

How the data were processed

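Femur cells of 2 mice were profiled with 10x Chromium v3 chemistry. The deposited files hold raw UMI counts per gene and barcode, which the authors made with Cell Ranger 3.0.0 on mm10 with reporter sequences added, without filtering barcodes. Barcodes under 1000 genes or over 15% mitochondrial UMIs were dropped. The 10 genes and the gene lists were chosen with earlier results of these data known, and the rule for naming classes was settled after the clusters had been seen. Cells were clustered (2000 variable genes, 30 components, Leiden resolution 0.5) without the 10 genes, the list of 20 mineralization genes and the reporters, and a cluster was named from at least 3 of its fixed markers raised 1.5 times in at least 10% of its cells. All 10 genes are named in the text. Genes of the list of 20 could be named with values where they passed the test in 1 of the first 2 comparisons (Mepe, Sost and Fgf23 are named outside this rule, after their values were seen). Genes most like a member were taken from the 3 with the highest r. Rebuilt names may differ from those of the study.

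Counts were summed per mouse and class and tested with the edgeR 4.0.16 quasi-likelihood test (R 4.3.3, TMM, filterByExpr, 1 fit over 8 sums; a separate fit for tdTomato), with Benjamini-Hochberg adjustment over 12198 genes and a threshold of 0.05. Each SE is the absolute log2 difference divided by the square root of the F statistic of that test. The mice are the replicates, n is 2, and an exact permutation test cannot reach this threshold. Classes of a mouse come from the same animal, and deviations of same-mouse sums correlated at 0.0612 to 0.513 in the 5 comparisons, so the fit with mouse as a block was computed beside each result. Alternatives were library totals, no filter, DESeq2 1.42.0, other cell limits, removal of likely doublets and leaving out sums. Scrublet (scanpy 1.11.5) called 6 and 3 cells, under 0.5%, so its threshold did not work and doublets were kept. Poisson and Wilson intervals are at the 95% level. Tests on simulated counts recovered 46.9% of log2 changes of 1 and 81.8% of log2 changes of 2 between osteoblast-like and preosteoblast-like cells. The simulated classes had the same mean profile apart from the altered genes, and their sums were drawn independently. The real classes differ in many more genes and share mice, so these shares may not hold for them. Levels are not compared between genes, because 3′ tags were counted. Osteoblast-like cells were not tested against reticular-like cells.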

Additional observations from a re-analysis of the deposited data

How the results depend on the processing

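Leaving out 1 sum at a time gave 5 to 7 called genes of the 10 between preosteoblast-like and reticular-like cells, 6 to 7 between osteoblast-like and preosteoblast-like, 2 to 4 between periosteal-like and reticular-like and 6 to 7 between periosteal-like and preosteoblast-like cells. The same fits called 10.8% to 17.6%, 12.8% to 31%, 9.58% to 13.5% and 9.44% to 13.5% of all genes. In periosteal-like against reticular-like cells, 4 of the 10 were called with no filter and without the periosteal sum of Mouse #1, in place of 2. For tdTomato, 2 genes were called with no filter, 1 with DESeq2 and 5 with the replicate block. The block otherwise added Enpp1 and Slc20a1 (preosteoblast-like against reticular-like) and Bglap (periosteal-like against preosteoblast-like) and changed no other call of the 10 genes. The cause of these changes was not tested.

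Of 686 tested log2 differences under alternatives, 639 kept direction and side of the threshold, 6 lost the call, 28 gained it and 13 turned, all of them uncalled in the main analysis. Alpl turned to -0.25 (osteoblast-like against preosteoblast-like, library totals). For tdTomato, Bglap became 0.11 both after removal of likely doublets and at the 95th percentile. Against reticular-like cells, periosteal-like values became 2.03 for Phospho1 (DESeq2) and 0.027 for Slc20a1 (stricter cell limits). The other turns came from leaving out 1 sum or 1 mouse, where log2 differences ranged from -0.19 to 0.88 for Ibsp between preosteoblast-like and reticular-like cells. Between periosteal-like and reticular-like cells these ranges were -0.17 to 0.60 for Alpl, -1.69 to 0 for Phospho1, -0.42 to 0.23 for Slc20a1, -0.63 to 0.51 for Slc20a2, -0.18 to 0.83 for Phex, -0.57 to 2.95 for Bglap and -6.86 to 2.09 for Dmp1. Bglap and Dmp1 were called without the periosteal sum of Mouse #1. Slc20a1 in osteoblast-like cells also lost its call under stricter cell limits (edgeR adjusted p = 0.0545). Bglap depended on single sums: its difference of osteoblast-like from preosteoblast-like cells was 6.75 and 8.56 without the preosteoblast-like sum of Mouse #1 and Mouse #2.

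The osteoblast-like class has 12 and 61 cells, so genes at a few UMIs there rest on Mouse #2. Without a whole mouse there were no residual degrees of freedom, and values were computed with no test. Droplets with free RNA, doublets and depth differ between classes, and their part was not tested.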
